A study of Mus musculus with 2 samples.

Results

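Genes used as markers of dentate granule neurons, the principal cells of the dentate gyrus, were followed through hippocampal RNA of AtrxdE2 mice, AtrxdE2 mice given TMPyP4 and wild-type mice. The set holds 9 genes out of 16446 named on the array: Prox1, C1ql2, C1ql3, Dsp, Lct, Stxbp6, Tdo2, Trpc6 and Pdzd2. They were found by their symbol in the platform's probe annotation, and each is read by 1 probe printed as 1 spot. AtrxdE2 mice carry the AtrxΔE2 allele of Atrx, which encodes an ATP-dependent chromatin remodeller, and TMPyP4 is a cationic porphyrin that binds G-quadruplex DNA. Mice of the AtrxdE2+TMPyP4 group were injected intraperitoneally with 30 mg/kg TMPyP4, 2 times weekly, starting at postnatal day 30 and ending at day 90. The labels used here do not state strain, sex, age at dissection, any vehicle injection or whether the allele is present in all cells. Each RNA was a pool of 5 mice. The first array carried AtrxdE2 (Cy3) against wild type (Cy5) and the second AtrxdE2+TMPyP4 (Cy3) against wild type (Cy5), so there are 4 channels, no replicate array, no dye swap and no p-value. Dye and genotype, and array and treatment, cannot be told apart. The labels do not state whether the wild-type RNA on both arrays came from the same pool, so a difference between the wild-type channels may be one of arrays or of mice.

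Granule neurons receive the main cortical input to the hippocampus and send mossy fibre axons to the hilus and to CA3. New ones are added throughout adult life in rodents, and the homeobox protein PROX1 is needed both for them to form and for mature ones to keep their identity. Several of the other genes are known mainly because in situ hybridisation and single-cell studies of mouse hippocampus found them enriched in this layer. No member, Prox1 included, defines the cell type alone in whole-tissue RNA, and most are also transcribed in other cells. In whole hippocampus, fewer granule neurons and less RNA per granule neuron cannot be told apart.

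Promoters were examined because the drug given to one of the pools binds G-quadruplexes, and are printed for Prox1 and Dsp, the members that hold the motif, and for Trpc6, which has no motif and had the largest ratios over wild type after the processing used here. The motif searched was 4 runs of GGG separated by 1 to 7 bases of any kind (G included), on both strands, in the 300 bases from 250 before to 50 after each annotated start (RefSeq, GRCm38.p6). It was present in a window of 2 of the 9 genes, Prox1 and Dsp, against 20.4% of all 27025 genes with such a window. Capitals mark the motif, which is on the gene's strand in Dsp and on both strands in this Prox1 window (as runs of CCC where the other strand carries it); a window of another Prox1 start also holds it. All 3 are written along the gene's strand: Prox1 at chr1:190170778-190171077 (minus strand), Dsp at chr13:38151044-38151343 (plus strand) and Trpc6 at chr9:8543892-8544191 (plus strand).
Prox1: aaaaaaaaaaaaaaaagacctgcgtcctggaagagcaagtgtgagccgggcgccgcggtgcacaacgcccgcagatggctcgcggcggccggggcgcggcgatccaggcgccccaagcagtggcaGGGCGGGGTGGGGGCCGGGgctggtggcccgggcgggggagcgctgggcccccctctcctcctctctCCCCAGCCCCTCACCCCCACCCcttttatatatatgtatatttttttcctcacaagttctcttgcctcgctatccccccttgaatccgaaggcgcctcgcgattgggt
Dsp: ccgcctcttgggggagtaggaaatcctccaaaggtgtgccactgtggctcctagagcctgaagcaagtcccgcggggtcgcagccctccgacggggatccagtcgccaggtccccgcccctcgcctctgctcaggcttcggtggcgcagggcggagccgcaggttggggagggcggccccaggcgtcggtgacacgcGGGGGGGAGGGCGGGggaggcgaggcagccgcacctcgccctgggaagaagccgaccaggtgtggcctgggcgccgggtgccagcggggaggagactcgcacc
Trpc6: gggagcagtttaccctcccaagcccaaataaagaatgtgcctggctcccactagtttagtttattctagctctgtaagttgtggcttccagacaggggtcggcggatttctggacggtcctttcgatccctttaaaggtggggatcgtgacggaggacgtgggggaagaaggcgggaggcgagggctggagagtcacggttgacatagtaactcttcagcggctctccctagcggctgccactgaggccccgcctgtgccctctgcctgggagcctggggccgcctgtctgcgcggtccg
A match describes these letters only. The windows of C1ql2, C1ql3, Stxbp6 and Pdzd2 were also rich in G and C (67.3%, 66.3%, 66.3% and 68.7%, against a median of 52.7% over all 32851 windows), but had no such motif. The Lct and Tdo2 windows, with 44.7% and 47.7%, lay below that median and had 1 and 4 CpG dinucleotides.

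Of the 9 genes, 8 were above background in all 4 channels, that is, more than 2 SD above the mean of the blank spots. The exception was Pdzd2, which encodes a protein with PDZ domains. Relative to the blank mean its AtrxdE2 spot read -0.6 beside 1.7 for wild type, and its AtrxdE2+TMPyP4 spot 1.6 beside 0.0 for wild type, so no level and no ratio is given for it. Over the series, 86.5% of the 23473 probes were above background in AtrxdE2, 83.4% in AtrxdE2+TMPyP4, and 89.9% and 83.6% in the wild-type channels of the first and second array. Blank spots had SDs of 3.3 and 3.26 in the AtrxdE2 and AtrxdE2+TMPyP4 channels and 1.23 and 0.92 in the wild-type channels. Atrx itself had a log2 ratio of -0.68 in AtrxdE2 and -0.36 in AtrxdE2+TMPyP4, each over wild type. Its probe was dim, with 19.1 above blank in AtrxdE2 against 47.4 in wild type. In the authors' own value table, which adds no offset to the signals, the Atrx ratios were -1.96 and -0.78. Where its probe lies relative to the altered part of the gene was not analysed here.

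After the processing used here, most dentate granule genes had ratios close to 0 in both mutant pools, and 1 of them, Trpc6, was higher in both. Their median log2 ratio over wild type was -0.01 in AtrxdE2 (SD 0.33 over 8 genes) and 0.03 in AtrxdE2+TMPyP4 (SD 0.25), against medians of 0 and 0.01 over all 13633 measured named genes. Above 0 were 4 and 5 of the 8 genes, against a background of 49.3% and 52.8%. No member differed by 2-fold from wild type in either pool. Over all measured genes, 0.0293% did so in AtrxdE2 and 0.191% in AtrxdE2+TMPyP4. By the authors' values Trpc6 and Dsp, 2 of the 8 members, were past 2-fold in AtrxdE2 (background 1.56%), none in AtrxdE2+TMPyP4 (2.02%), and 1, Dsp, between the mutant pools (4.59%). At least 1.5-fold higher was 1 of 8, Trpc6, in each pool, against a background of 0.44% and 0.902%, and none was 1.5-fold lower (0.66% and 0.462%). Background correction added an offset of 50 to every signal, which pulls ratios of dim probes towards 0. Prox1, C1ql2, Dsp, Lct and Tdo2 had signals above blank smaller than that offset in all 4 channels. Their small ratios, and the small SDs of genes of like signal, are therefore partly set by the processing. The values below are log2 signals after background correction and normalization of both arrays. They allow 1 probe to be compared between channels but not 1 probe with another. Differences between the mutant pools are the ratio in AtrxdE2+TMPyP4 minus the ratio in AtrxdE2.

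**Figure D1:**
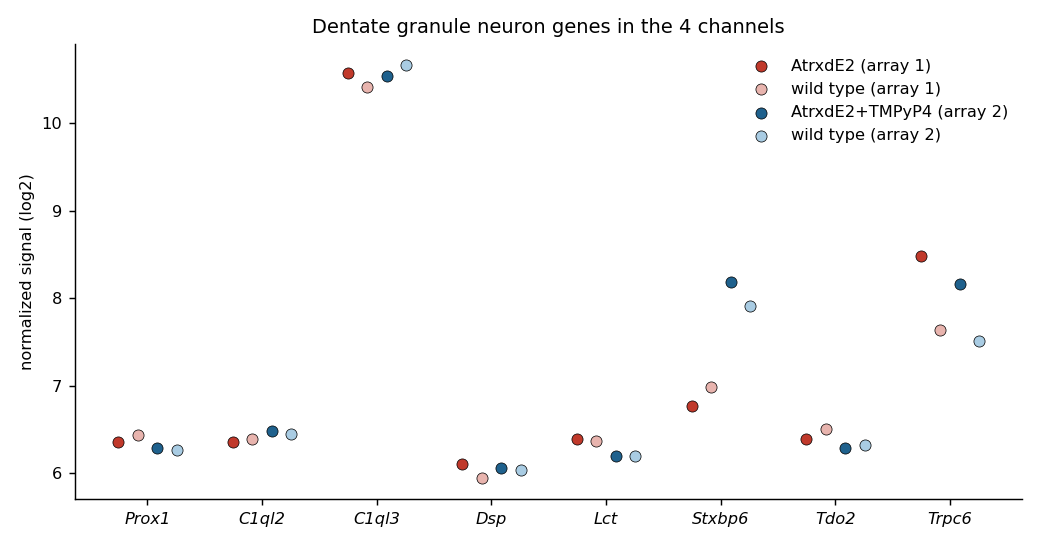
Normalized log2 signal (y axis) of the 8 measured dentate granule neuron genes (x axis) in the 4 channels, 1 point per channel: AtrxdE2, wild type on the same array, AtrxdE2+TMPyP4, wild type on the same array. Both mutant points of Trpc6 lie above both wild-type points, while both Stxbp6 points of the second array lie above those of the first; heights of different genes are not comparable because each has its own probe.

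Prox1, whose protein granule neurons need to keep their identity, stood at 6.36 in AtrxdE2, against 6.43 in wild type on the first array. It stood at 6.29 in AtrxdE2+TMPyP4, against 6.26 in wild type on the second. Mutant and wild-type values overlapped. Its log2 ratio was -0.06 in AtrxdE2 and 0.03 in AtrxdE2+TMPyP4, where the 500 genes nearest in signal had SDs of 0.12 and 0.10, and the wild-type channels differed from each other by -0.17 (second minus first array). The difference between the mutant pools, 0.10 higher with TMPyP4, was within the SD of 0.16 of its neighbours. Its signals above blank were modest, 31.6 in AtrxdE2 and 23.5 in wild type, then 29.9 in AtrxdE2+TMPyP4 and 12.2 in wild type, which is between 9.16 and 19.1 blank SDs.

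Of the genes listed as Prox1 partners, 4 of 5 on the array were measured, among them the nuclear receptor genes Nr2f2 and Nr5a2. All 4 were above 0 in AtrxdE2 (median 0.16), from Nr5a2 at 0.09 to Nr2f2 at 0.34, and 3 of 4 in AtrxdE2+TMPyP4 (median 0.11), from the histone deacetylase gene Hdac3 at -0.36 to the coactivator gene Ppargc1a at 0.45. Between the mutant pools their median was -0.10, from Hdac3 at -0.49 to Ppargc1a at 0.26. None reached 1.5-fold in either pool over wild type after normexp and loess. In the authors' value table the dim gene Nr5a2 was past 2-fold in AtrxdE2+TMPyP4, at 1.17 against 0.18 here.

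C1ql2 and C1ql3 encode secreted C1q-like proteins that mossy fibres release and that, in mice, help recruit kainate receptors at their synapses. C1ql2 stood at 6.35 in AtrxdE2, against 6.39 in wild type, and at 6.48 in AtrxdE2+TMPyP4, against 6.45 in wild type, a spread of little over 0.1 units. C1ql3, whose spot was bright on both arrays, stood at 10.57 in AtrxdE2, against 10.42 in wild type, and at 10.54 in AtrxdE2+TMPyP4, against 10.67 in wild type. Both mutant values of C1ql3 thus lay between the wild-type values. The log2 ratios of C1ql2 were -0.03 and 0.03 in AtrxdE2 and AtrxdE2+TMPyP4, and those of C1ql3 were 0.15 and -0.13, all within the SD of the nearest genes (0.12 for C1ql2 on each array, 0.23 and 0.22 for C1ql3). C1ql3 was 0.28 lower in AtrxdE2+TMPyP4 than in AtrxdE2 (log2 difference -0.28, SD 0.30). With the local background in place of the blank level, which reached 862 units above blank beside a wild-type spot of 1054.2, its ratio in AtrxdE2+TMPyP4 was 0.89, and with median centring in place of loess it was 0.45. In AtrxdE2 it was -0.14 and 0.41 under the same settings.

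The relatives and receptors of these proteins gave no common direction in AtrxdE2. C1ql1 and C1ql4 had log2 ratios of 0.16 and 0 in AtrxdE2 and of -0.01 and -0.07 in AtrxdE2+TMPyP4. Over 9 measured genes of the list (C1q-like genes, cerebellins, neurexins, the receptor gene Bai3, now Adgrb3, and kainate receptor subunits, C1ql2 and C1ql3 left out), the median was 0.06 in AtrxdE2 with 7 above 0, from the cerebellin gene Cbln1 at -0.20 to the neurexin gene Nrxn2 at 0.58. In AtrxdE2+TMPyP4 it was -0.11 with 2 above 0, from Cbln1 at -0.66 to Cbln2 at 0.39. In AtrxdE2+TMPyP4 relative to AtrxdE2 it was -0.17 and no gene was above 0 (background 52.7%), from Nrxn2 at -0.91 to the kainate receptor gene Grik2 at 0; with median centring or the local background 3 of 9 were above 0. After normexp and loess, of these only Cbln1 in AtrxdE2+TMPyP4 passed 1.5-fold against wild type. Between the mutant pools only Nrxn2 did so, where 3.23% of all genes pass. In the authors' value table Cbln1 was also past 1.5-fold there, at -0.62.

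Trpc6, which encodes a cation channel opened by diacylglycerol, had the largest ratio of the members in both pools after normexp and loess. Dsp had a larger one in AtrxdE2 with plain subtraction (1.36, against 1.11 for Trpc6) and in the authors' value table (1.56, against 1.09), and in AtrxdE2+TMPyP4 with the local background C1ql3 at 0.89 and Stxbp6 at 0.59 exceeded Trpc6 at 0.35. It stood at 8.48 in AtrxdE2, against 7.63 in wild type on the first array, and at 8.16 in AtrxdE2+TMPyP4, against 7.51 in wild type on the second. Both mutant values lay above both wild-type values, and the wild-type channels differed by -0.13. The ratio was 1.8-fold in AtrxdE2 (log2 0.85) and 1.57-fold in AtrxdE2+TMPyP4 (log2 0.65), where the 500 nearest genes had an SD of 0.23 on each array. In the authors' value table it was 1.09 and 0.84. Signals above blank were 359.6 in AtrxdE2, against 107.8 in wild type, and 336.2 in AtrxdE2+TMPyP4, against 83.5 in wild type, at least 87.6 blank SDs in every channel. The log2 difference between the mutant pools was -0.20, within the SD of 0.29 of its neighbours.

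The other TRPC channel genes had smaller values. Trpc1, Trpc4, Trpc5 and Trpc7, which encode related cation channels, had log2 ratios of -0.15, 0.18, 0.09 and -0.06 in AtrxdE2 and of 0.21, 0.05, 0.02 and -0.20 in AtrxdE2+TMPyP4. Their median was 0.01 in AtrxdE2, 0.03 in AtrxdE2+TMPyP4 and -0.10 between the mutant pools, where Trpc1 at 0.36 was highest and Trpc4 and Trpc7 at -0.14 lowest. TRPC6 is also made by smooth muscle and other stromal cells. Meningeal fibroblast genes were higher in the same pools: 11 of 12 were above 0 in AtrxdE2 (median 0.34, from Aldh1a2 at -0.08 to the matrix protein gene Mgp at 1.02) and 11 of 12 in AtrxdE2+TMPyP4 (median 0.70, from Aldh1a2 at -0.15 to Crabp2 at 1.25). The summed normalized level of these 12 genes was 3415 in AtrxdE2, against 2522 in wild type, and 3876 in AtrxdE2+TMPyP4, against 2367 in wild type, and none was at background in any channel. Over the 6 alternatives the list's median stayed between 0.20 and 0.59 in AtrxdE2 and between 0.42 and 1.01 in AtrxdE2+TMPyP4. Between the mutant pools the list had a median of 0.20, from Col1a1 at -0.29 to Ogn at 0.80, while Trpc6 was at -0.20. The part of these cells in the Trpc6 values was not tested.

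**Figure D2:**
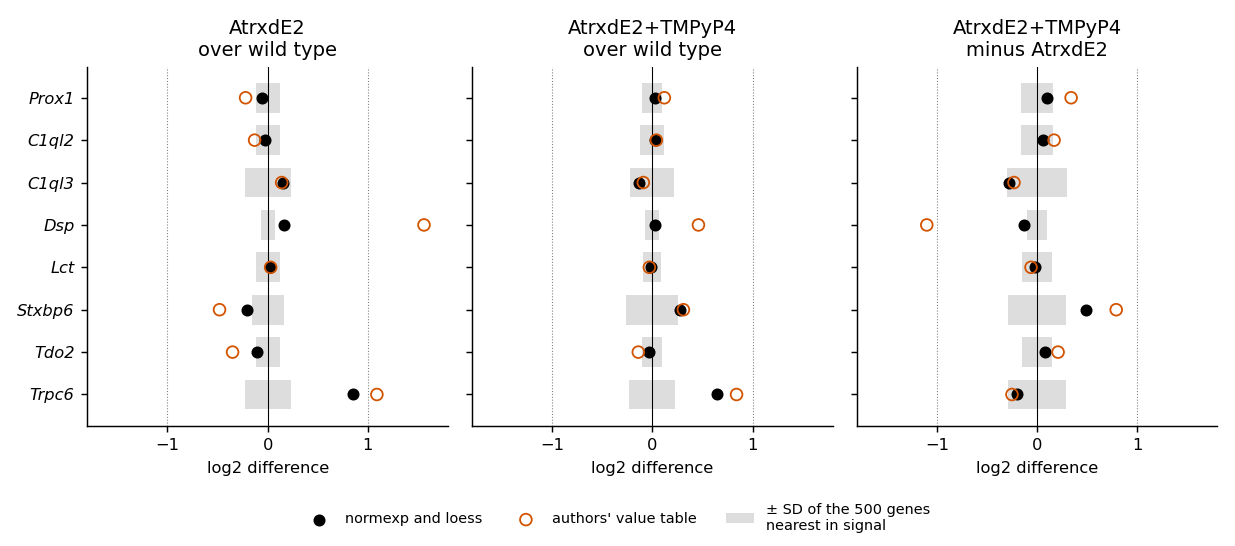
Log2 difference (x axis) of each measured member (y axis) in the 3 comparisons, with the main values as filled points, the authors' value table as open circles and a grey bar for ± 1 SD of the 500 genes nearest in signal. Dotted lines mark 2-fold. Outside their bars lie Trpc6 in both comparisons with wild type, Stxbp6 in all 3 comparisons, and Dsp in AtrxdE2 over wild type and between the mutant pools; the open circles of Dsp lie far from its filled points.

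Dsp encodes desmoplakin, which ties desmosomal cadherins to intermediate filaments. It stood at 6.10 in AtrxdE2, against 5.94 in wild type, and at 6.06 in AtrxdE2+TMPyP4, against 6.03 in wild type. Both mutant values were the higher ones, by log2 ratios of 0.16 (SD of nearest genes 0.07) and 0.03 (SD 0.07). In the authors' value table, which adds no offset to the signals, the same spots gave 1.56 in AtrxdE2 and 0.46 in AtrxdE2+TMPyP4, and -1.10 between the mutant pools. Its probe lay close to background: signals above blank were 15.5 in AtrxdE2 and 3.3 in wild type, then 13.2 in AtrxdE2+TMPyP4 and 4.3 in wild type. These are 4.70, 2.72, 4.04 and 4.62 blank SDs. With plain subtraction of the blank level in place of normexp the ratio in AtrxdE2 was 1.36, and with an offset of 10 it was 0.43.

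After normexp and loess, most other desmosomal genes measured had ratios close to 0. For the dim ones, Ppl among them, the offset added to every signal partly sets these small ratios. The list had 8 of 13 genes above background in every channel, with a median of 0.05 in AtrxdE2, from the plakoglobin gene Jup at -0.15 to Perp at 0.21. In AtrxdE2+TMPyP4 the median was -0.05, from the plakophilin gene Pkp4 at -0.34 to Perp at 0.35, and between the mutant pools -0.07, from Pkp4 at -0.47 to Perp at 0.14. No gene of the list passed 1.5-fold in any comparison after normexp and loess. In the authors' value table Pkp2 passed it in AtrxdE2+TMPyP4, at -0.66, and Ppl between the mutant pools, at -0.65.

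Stxbp6 encodes amisyn, a protein that binds SNARE proteins and restrains vesicle fusion. It stood at 6.77 in AtrxdE2, against 6.98 in wild type on the first array, and at 8.19 in AtrxdE2+TMPyP4, against 7.91 in wild type on the second. Both values of the second array lay above both values of the first, and the wild-type channels alone differed by 0.93 log2 units. For its signal range the nearest genes had an SD of 0.32 in that difference, and 5.42% of all genes differed by 1.5-fold or more between wild-type channels. Signals above blank were 62.3 in AtrxdE2 and 55.3 in wild type, then 351.5 in AtrxdE2+TMPyP4 and 125.5 in wild type. The local background of the spot was likewise higher on the second array, 276 and 126 units above blank in the AtrxdE2+TMPyP4 and wild-type channels, against 39.8 and 22.0 in the AtrxdE2 and wild-type channels of the first.

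Against wild type, Stxbp6 had a log2 ratio of -0.21 in AtrxdE2 (SD of nearest genes 0.16) and 0.28 in AtrxdE2+TMPyP4 (SD 0.26). Between the mutant pools it was 0.49 higher with TMPyP4 (SD 0.29), the largest such difference of the members after normexp and loess, or 1.42 when the Cy3 channels were compared directly without wild type. The second value includes the difference of 0.93 between the wild-type channels. Dsp had a larger difference with plain subtraction (-1.09, against 0.76 for Stxbp6) and in the authors' value table (-1.10, against 0.79), and C1ql3 with the local background (1.03, against 0.95). No member differed by 2-fold or by 1.5-fold between the mutant pools as a difference of ratios, where 0.315% and 3.23% of all genes did. In the direct comparison of Cy3 channels, Stxbp6 was the 1 member past 2-fold (background 2.16%). Of the related genes, Stxbp2, Stxbp4 and Stxbp5 had 0.05, 0.15 and 0.14 in AtrxdE2 and -0.01, -0.04 and -0.08 in AtrxdE2+TMPyP4.

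Over the 6 measured syntaxin-binding and SNARE genes other than Stxbp6, the median was 0.06 in AtrxdE2, from the SNARE gene Snap25 at -0.67 to Stxbp4 at 0.15. It was -0.05 in AtrxdE2+TMPyP4, from the syntaxin gene Stx1a at -0.28 to Snap25 at 0.59, and -0.16 between the mutant pools, from Stx1a at -0.24 to Snap25 at 1.25. Snap25 thus had the same order of pools as Stxbp6, but its wild-type channels differed by only 0.04. Its 2-fold difference between the mutant pools stands against a background of 0.213% of genes higher by that rule.

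Tdo2 and Lct are enzyme genes best known outside the brain. Tdo2, tryptophan dioxygenase of the kynurenine pathway, stood at 6.39 in AtrxdE2, against 6.50 in wild type, and at 6.29 in AtrxdE2+TMPyP4, against 6.32 in wild type. Both mutant values were below the wild-type value on their array, by log2 ratios of -0.11 and -0.03, within SDs of 0.12 and 0.10. Lct, lactase of the intestinal brush border, stood at 6.39 in AtrxdE2, against 6.37 in wild type, and at 6.19 in both channels of the second array, with ratios of 0.02 and -0.01. For both genes the wild-type channels differed from each other by more than either mutant pool did from wild type, by -0.18 each. In AtrxdE2+TMPyP4 relative to AtrxdE2 the log2 differences were 0.08 for Tdo2 and -0.02 for Lct (SD 0.15 each).

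Few other genes listed for tryptophan metabolism were measurable in this tissue, 5 of 13 on the array. The kynurenine monooxygenase gene Kmo and the kynureninase gene Kynu were among those that were not. The median of the 5 was -0.03 in AtrxdE2, from the decarboxylase gene Ddc at -0.30 to Indo (now Ido1) at 0.06. It was -0.04 in AtrxdE2+TMPyP4, from Ccbl1 (now Kyat1) at -0.18 to Ccbl2 (now Kyat3) at 0.14, and -0.04 between the mutant pools, from Afmid at -0.17 to Ddc at 0.26. In the authors' value table the dim genes Indo and Afmid passed 1.5-fold. Indo was at 0.93 in AtrxdE2 and -0.60 between the mutant pools, and Afmid at -0.79 in AtrxdE2+TMPyP4 and -0.98 between the pools.

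Other genes known from dentate granule neurons were read beside the 9. Of 22 listed, 18 were on the array under those symbols and 16 were measured, with a median of 0.02 in AtrxdE2 (10 above 0) and 0.03 in AtrxdE2+TMPyP4 (9 above 0). Calb1, the calcium buffer calbindin that fills mature granule neurons, had -0.10 and 0.03. The highest and lowest in AtrxdE2 were the LIM homeobox gene Lhx2 at 0.34 and the enkephalin precursor gene Penk1 (now Penk) at -0.96, and in AtrxdE2+TMPyP4 Sipa1l2 at 0.35 and Penk1 at -0.52. Penk1 is also strongly expressed in striatum, and its wild-type channels differed by -0.84. Between the mutant pools the median was 0.09, from the transcription factor gene Bcl11b at -0.65 to the exchange factor gene Rasgrp1 at 0.66, which each passed 1.5-fold. After normexp and loess, Penk1 in AtrxdE2 was the 1 gene of this list past 1.5-fold against wild type. In the authors' value table the dim genes Slc29a4, Dock10 and Ablim3 also passed it in AtrxdE2+TMPyP4, at 1.04, 0.85 and 0.77.

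Genes of immature granule neurons and their progenitors, 10 measured of 11, had a median of 0.07 in AtrxdE2, from Calb2 at -0.12 to Neurod2 at 0.29, and of -0.05 in AtrxdE2+TMPyP4. There the doublecortin gene Dcx, which marks young migrating neurons, was lowest at -0.38 and the differentiation factor gene Neurod1 highest at 0.48. In AtrxdE2+TMPyP4 relative to AtrxdE2 the median was -0.12, from Neurod2 at -0.63 to Tac2 at 0.32. Mossy cell genes, 5 measured of 6, had medians of -0.08 in each pool. They ran from Dkk3 at -0.45 to Nmb at 0.15 in AtrxdE2 and from Drd2 at -0.50 to Calb2 at 0.01 in AtrxdE2+TMPyP4. Between the mutant pools their median was 0.05, from Drd2 at -0.43 to Dkk3 at 0.37. In the authors' value table Drd2 was past 2-fold in AtrxdE2+TMPyP4, at -1.27, and between the mutant pools, at -1.07. Drd2 is also on the list of striatal genes read below, and Calb2 on that of immature granule genes.

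Lists of other hippocampal neurons were read in the same way. CA1 pyramidal genes (7 measured) had medians of -0.06 in AtrxdE2, from Nov (now Ccn3) at -0.22 to Wfs1 at 0.08, and -0.04 in AtrxdE2+TMPyP4, from Nov at -0.33 to Gpr161 at 0.24. Genes of CA2 and CA3 (9 measured) had -0.09, from Prkcd at -0.25 to Bok at 0.28, and -0.14, from Prkcd at -0.79 to Bok at 0.13. Interneuron genes (9 measured) had -0.01, from Lhx6 at -0.32 to Npy at 0.22, and -0.04, from Slc32a1 at -0.37 to the parvalbumin gene Pvalb at 0.87. In AtrxdE2+TMPyP4 relative to AtrxdE2 the medians were 0.02 for CA1 (Wfs1 at -0.36 to Gpr161 at 0.38), -0.24 for CA2 and CA3 (Prkcd at -0.55 to Cacng5 at 0.18) and 0.12 for interneurons (Slc32a1 at -0.21 to Pvalb at 0.89), against 0.02 for the 8 dentate genes. Past 2-fold in the authors' value table were Prkcd in AtrxdE2+TMPyP4, at -1.24, and Pvalb there and between the mutant pools, at 1.10 and 1.14. With median centring the medians in AtrxdE2+TMPyP4 were 0.16 for CA1, 0.08 for CA2 and CA3 and 0.60 for interneurons, against -0.11 for the dentate genes and 0.18 for all genes. With the local background the CA2 and CA3 median was 0.10 in AtrxdE2+TMPyP4 and 0.22 between the mutant pools, the opposite direction, and the medians of immature granule genes were 0.04 and 0.26 and of mossy cell genes 0.14 and 0.36.

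Lists of other cells were read in RNA of the same pools. Choroid plexus genes (9 measured of 12 on the array, with Aqp1, Cldn2 and F5 not above background in every channel) had a median of 0.03 in AtrxdE2, from Kcne2 at -0.15 to Ttr at 1.59, and 1.44 in AtrxdE2+TMPyP4, from Otx2 at 0.62 to Ttr at 6.59, and 1.43 between the mutant pools, from Otx2 at 0.62 to Ttr at 4.99. In the authors' value table the range in AtrxdE2 was wider, from the dim gene Kcne2 at -1.05 to Ttr at 2.34. Over the 6 alternatives the choroid plexus median ran from 0.88 to 3.51 in AtrxdE2+TMPyP4 and from 0.81 to 3.58 between the mutant pools, with 9 of 9 above 0. Their summed normalized level was 4395 in AtrxdE2, against 3943 in wild type, and 48232 in AtrxdE2+TMPyP4, against 4078 in wild type. Oligodendrocyte genes (8) had medians of -0.55 in AtrxdE2, from Mbp at -1.32 to Ugt8a at -0.12, and -0.50 in AtrxdE2+TMPyP4, from Cnp1 (now Cnp) at -0.80 to Mag at 0.03, and 0.09 between the mutant pools, from Cnp1 at -0.26 to Mbp at 0.71. Their sums were 11321 in AtrxdE2, against 18553 in wild type, and 13633 in AtrxdE2+TMPyP4, against 20836 in wild type. With median centring, the oligodendrocyte median in AtrxdE2+TMPyP4 was 0, against 0.18 for all genes. Striatal genes (6) had -0.01, from Ppp1r1b at -0.90 to Tac1 at 0.24, and -0.55, from Ppp1r1b at -0.89 to Tac1 at 0.14, and -0.19 between the mutant pools, from Rgs9 at -0.81 to Pdyn at 0.06. The striatal median in AtrxdE2+TMPyP4 was -0.95 in the authors' value table but -0.01 with the local background, under which it was 0.26 between the mutant pools. How far the cell make-up of the dissected tissue enters the dentate values was not tested.

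**Figure D3:**
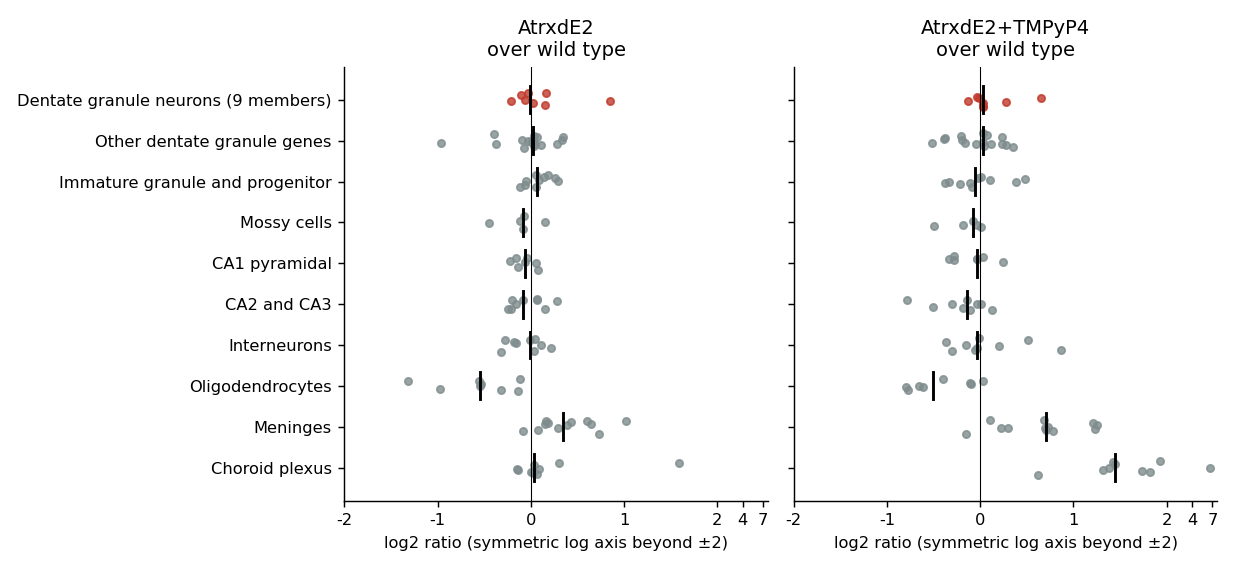
Log2 ratio over wild type (x axis, linear to ±2 and logarithmic beyond) of every measured gene of each list (points) and the list's median (black bar), in AtrxdE2 (left) and AtrxdE2+TMPyP4 (right). The dentate granule medians, -0.01 and 0.03, lie near 0 beside the other neuron lists, while the medians of meninges, choroid plexus and oligodendrocyte genes reach 0.70, 1.44 and -0.50 in AtrxdE2+TMPyP4.

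Processing moved the members unequally. Of the 6 alternatives, dropping the filter on dim probes cannot change a measured member's value, since each has 1 probe. The ratio of Trpc6 ranged from 0.75 to 1.11 in AtrxdE2 and from 0.35 to 0.93 in AtrxdE2+TMPyP4 over 6 alternatives, always above 0. Stxbp6 was below 0 in AtrxdE2 (-0.48 to -0.18) and above 0 in AtrxdE2+TMPyP4 (0.28 to 0.60) under each of them. Dsp was above 0 in AtrxdE2 under each (0.07 to 1.56) but ran from -0.25 to 0.46 in AtrxdE2+TMPyP4. Prox1 stayed between -0.22 and -0.02 in AtrxdE2 and between -0.15 and 0.12 in AtrxdE2+TMPyP4, and C1ql2 between -0.13 and 0 and between -0.07 and 0.08. When each array was centred on its median instead of by loess, the median over all genes was 0.07 in AtrxdE2 and 0.18 in AtrxdE2+TMPyP4, and Trpc6, at 1.03 and 0.93, lay above both and above the other members.

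**Figure D4:**
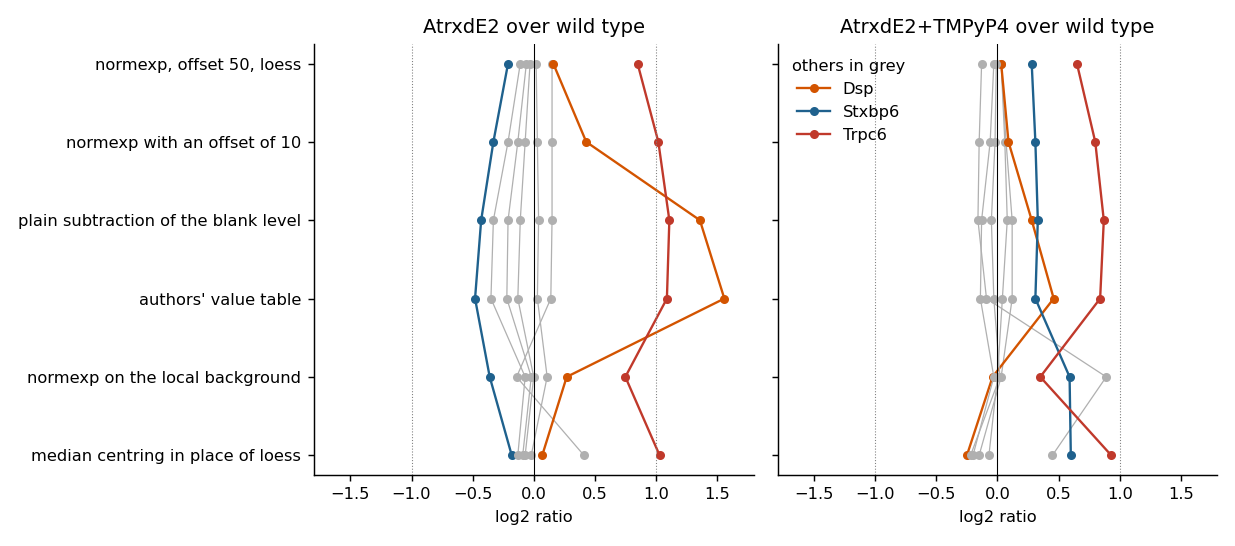
Log2 ratio over wild type (x axis) of each measured member under 6 ways of processing (y axis), in AtrxdE2 (left) and AtrxdE2+TMPyP4 (right); dotted lines mark 2-fold. Trpc6 stays above 0 in all of them, from 0.75 to 1.11 and from 0.35 to 0.93, while the dim gene Dsp moves between 0.07 and 1.56 in AtrxdE2.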

How the data were processed

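Hippocampal RNA was measured on 2 two-colour oligonucleotide arrays of 27456 spots, of which 2736 are blank. For each array the deposited scanner table gives, as median values, spot and local background intensity at both wavelengths, with several scanner gains merged by a linear fit per the file headers; the scanner software is not given in the sources used here. A table of the authors' own log2 values was set against them: each column equals log2 of Cy3 over Cy5 above the blank level minus a constant of 0.65 or 1.17 (within 0.01 for 99.99% of values, r = 0.99997, column medians 0), so it reads mutant over wild type.

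Background was corrected with normexp (limma 3.58.1, R 4.3.3; offset 50, which pulls ratios of dim probes towards 0) on the mean of the blank spots, trimmed by a share of 0.05 at each end, followed by loess within arrays and quantile scaling of average signal between them. Measured means above blank mean plus 2 SD in all 4 channels and not marked bad: 18669 probes, 13633 named genes. The platform annotation names 1 gene for 16631 of 23473 probes and several for none; updated symbols are from RefSeq. The normalization was run on simulated data, where the direction of added changes and a median near 0 for unchanged probes were checked. Recovery of the size of the changes was not a criterion. Named genes are the 9 members, Atrx, the highest and lowest gene of each list in each comparison, and relatives bearing a member's family name. Calb1, Kmo, Kynu, Stxbp2, Stxbp5, Aqp1, Cldn2, F5, Enpp2, Pkp2, Ppl, Slc29a4, Dock10 and Ablim3 were added after their values were seen. The members and lists were chosen with earlier results of these data known. Alternatives were plain subtraction, local background, median centring, the authors' values, no filter on dim probes and an offset of 10; list medians under them were added after seeing the data. The number of arrays limits precision.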

Additional observations from a re-analysis of the deposited data

How the results depend on the processing

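All values rest on 1 array per comparison, so no array could be left out and no test could be run. Among background settings, Dsp moved most in AtrxdE2 (0.16, against 1.36 with plain subtraction) and C1ql3 in AtrxdE2+TMPyP4 (-0.13, against 0.89 with the local background). No paired analysis was possible because each mutant group has 1 array. Each member has 1 probe, so treating probes singly changes nothing. The count of members past 2-fold in AtrxdE2 over wild type was 0, but 2 with plain subtraction and 2 in the authors' value table (Trpc6 and Dsp), and 1 with median centring and 1 with an offset of 10 (Trpc6); the offset was chosen after seeing the data. Between the mutant pools it was 0, but 1 with plain subtraction, 1 in the authors' table (Dsp, lower with TMPyP4) and 1 with the local background (C1ql3, higher). In AtrxdE2+TMPyP4 over wild type it was 0 under each of the 6 alternatives. The medians of the members moved by less than the spread between wild-type channels. Of 152 single-gene values under alternatives, 33 moved by more than that spread and 15 changed sign, 8 of them with median centring. The 152 include 24 values without the filter on dim probes, which equal the main values by construction. They also include 8 from the direct comparison of Cy3 channels, which leaves wild type out and is not 1 of the 6 alternatives. Of those 8, 5 moved and 2 changed sign. Over all genes, 3 were 2-fold higher and 1 lower in AtrxdE2, against 81 and 123 with plain subtraction, 16 and 19 with the local background, 13 and 1 with median centring, 105 and 108 in the authors' table and 9 and 9 with an offset of 10. In AtrxdE2+TMPyP4 they were 22 and 4, against 175 and 84, 331 and 5, 143 and 0, 208 and 68, and 51 and 11 in the same order. In AtrxdE2+TMPyP4 relative to AtrxdE2 they were 29 and 14, against 407 and 228, 456 and 26, 102 and 12, 411 and 215, and 75 and 45. The cause was not tested.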
